A study of Sardinops sagax and Scomber japonicus with 20 samples.

Results

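Amino acid breakdown in fish liver was followed through 54 genes, chosen by symbol as enzymes of amino acid breakdown, of methionine and one-carbon metabolism and of urea synthesis. The sardine table held 32 of them in 44 of its 6716 rows, and the mackerel table held 45 of them in 58 of its 9191 rows. A row in both tables was available for 29 of the genes, and 6 (SDS, MAT1A, OTC, GLS2, BCAT2 and ALDH4A1) were not analysed here. Several rows of 1 symbol are paralogues or transcripts among which the reads could have been split, so their separate values are uncertain. They are called row 1, row 2 and row 3 in the order of their mean.

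The liver transcriptome was sequenced from 20 adult males, 10 Pacific sardines (Sardinops sagax) and 10 chub mackerel (Scomber japonicus), obtained as live bait and held in flow-through seawater on pelleted feed. In each species 5 fish stayed unexposed as controls and 5 spent 5 h in water with 12.5 pM 17α-ethynylestradiol (EE2), a synthetic estrogen used in oral contraceptives. No strain or age was given beyond the adult stage. Each species had 1 table of the authors' DESeq2 comparison, with no value per fish, and the question it served was which transcripts a short exposure changes.

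The numerator group of the fold change was not recorded in either table. Each gene is described by the side, positive or negative, that held the higher level, and neither side is assigned to exposed or control fish. Whole-number reads were recovered from the mean normalized counts, and in sardine rows that could not be solved the negative-side number was estimated. In mackerel each side was 1 number of reads; in sardine the negative side was 1 number and the positive side held 5 libraries, which could not be tied to labelled fish. In both tables rows with the same reads carried the same standard error (358 of 358 repeated read pairs in mackerel, and 11 of 11 repeated negative-side numbers among sardine rows at 0 on the positive side). The authors' adjusted p therefore holds no spread between fish for the sides that entered as 1 number. A row is called where that adjusted p is under 0.05. Levels are in normalized reads, that is reads times the weight the table gave them, and ratios carry a 95% interval that covers counting error only, since reads amplified by PCR and carrying no molecular identifier are not independent. In sardine the interval covers the negative-side number alone.

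Liver cells strip the amino group from surplus amino acids by transamination and feed the carbon skeletons into glucose, ketone and energy metabolism. Tyrosine, tryptophan and histidine are broken down by chains of enzymes found largely in liver, while glycine, serine, betaine and methionine breakdown pass one-carbon units to folate and to the methyl donor S-adenosylmethionine. Most bony fish release nitrogen mainly as ammonia through the gills, and many have little hepatic urea synthesis as adults.

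In sardine the members lay mostly higher on the positive side. Of 44 member rows 33 (75%) were called positive, 0 negative and 11 neither, against 30.5% positive and 16.1% negative over all 6600 rows with an adjusted p. The median log2 fold change of the members was 3.58, against -0.19 over all rows. All 8 rows for tyrosine and phenylalanine, all 7 for glycine and serine and all 3 for histidine breakdown were called positive.

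Many of these folds rested on empty rows. On the negative side 20 of the 44 member rows had 0 reads, against 40.4% of all sardine rows, and 15 of the 20 were among the calls, a combination found in 24.1% of all rows with an adjusted p. All 11 member rows that carried a predicted zebrafish record were at 0 there, as were 82.8% of all predicted rows and 19.7% of all curated ones. The predicted rows were ARG1, OAT, ASS1, UROC1, SHMT2, PRODH, GPT2 rows 1 and 2, row 2 of QDPR and GOT1, and BCKDHB row 1. Among member rows with reads on both sides 18 of 24 (75%) were called positive, against 13.2% of all such rows, and 0 negative, against 24.4%. Their median was 2.62, against -1.23. Among rows with a mean of at least 10, 10 of 15 (66.7%) were called positive, against 49.5%, and 0 negative, against 30.4%. Among curated records 25 of 33 (75.8%) were called positive, against 19.7%, and 0 negative, against 21.8%. With the empty rows set at the smallest fold that a floor of 3 counts allows, the member median was 1.67.

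In mackerel members were called on both sides. Of 54 member rows with an adjusted p 19 (35.2%) were called positive and 8 (14.8%) negative, against 14.1% and 10.8% of all 6319 rows with an adjusted p, and 27 were not called. The median log2 fold change of the 58 rows was 0.51, against 0.04 over all rows. A member row rested on a median of 16.5 reads, against 4.0 over all rows, and 13 rows had at least 100 reads; 10 of these were called positive, against 18.8% of all rows with that many reads and an adjusted p, and 0 negative, against 14.9%. Among rows with a mean of at least 10, 15 of 28 (53.6%) were called positive and 3 (10.7%) negative, against 25.7% and 15.4%. An exact two-sided binomial test of the reads compares the totals of the sides and not sets of fish. It called 11 rows positive and 1 negative of 58, against 2.07% and 2% of all rows. These shares are at unlike depths, since the test can seldom call a row of few reads and members had more reads. No share of the exact test at the depth of the members was computed. The 1 negative row was GOT2, and the test called none of the 8 rows that the authors' adjusted p called negative.

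**Figure D1:**
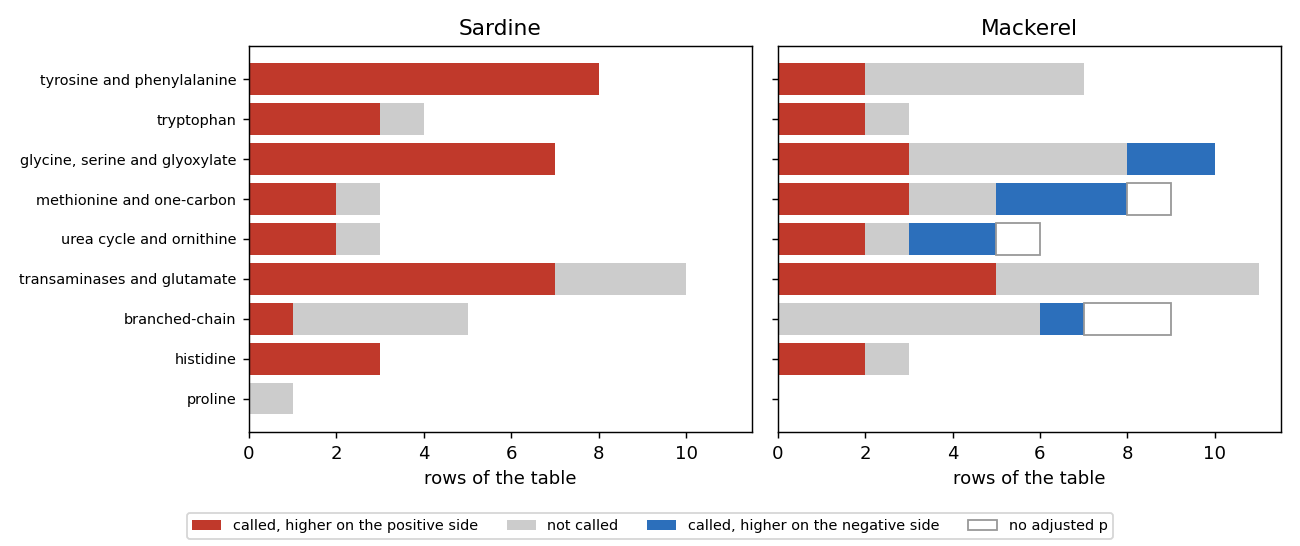
Number of member rows (x axis) per pathway (y axis) in sardine (left) and mackerel (right), split by the call of the authors' deposited table at an adjusted p under 0.05. In sardine 33 of 44 rows are red and 0 blue, while in mackerel 19 are red and 8 blue, the blue ones in glycine and serine, methionine, urea cycle and branched-chain breakdown.

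The chart of calls by pathway gives each table's own calls, and a colour need not stand for the same group of fish in both panels. Added up, the mackerel member rows held 3397 positive-side reads, 0.903% of all reads of that side (Wilson 95% interval 0.873% to 0.933%), and 1552 negative-side reads, 0.467% (0.444% to 0.491%). Their summed level was 1.77 times higher on the positive side, and 1.54 times without the 2 rows of BHMT. In sardine the summed level was 1030 normalized reads for the positive and 171 for the negative side, a ratio of 6.04, or 4.95 without row 1 of HPD.

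Tissue markers differed between the sides as well. In sardine 37 of 48 rows of striated muscle markers were called negative and 3 positive, with a summed level of 52.4 normalized reads for the positive and 11476 for the negative side; the atrial light chain MYL7 stood at 0 and 182. Of the endothelial and stellate markers 9 of 11 rows were called negative and 0 positive (12.3 against 905 normalized reads, most of them DES, a gene of the muscle list as well). Hepatocyte markers had 21 of 24 rows called positive and 0 negative, at 47301 against 9910 normalized reads, and A1CF, AMBP, FGA, HNF4A and TTR were at 0 on the negative side. The negative side thus held striated muscle markers, although every sample was labelled liver. Of the other lists, leukocyte markers had 0 positive and 2 negative calls in 8 rows, erythrocyte markers 1 and 5 in 11, bile duct markers 3 and 2 in 7, kidney tubule markers 2 and 0 in 6 and pancreas markers 2 and 0 in 5. Over all sardine rows with an adjusted p the shares were 30.5% positive and 16.1% negative. The part of these differences in the member results was not tested, and in bulk tissue fewer cells of a type and less RNA per cell cannot be told apart. Over all rows of each list the hepatocyte markers had a median log2 fold change of 3.39, against 3.58 for the members. Hepatocyte marker rows with reads on both sides had a median of 1.92 in 13 rows, with a range from -1.05 to 4.97. Of the 24 member rows with reads on both sides, 15 lay above that median and 0 above the highest marker row, and the member median exceeded the marker median by 0.70.

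In mackerel the hepatocyte markers leaned to the negative side. Of 34 hepatocyte marker rows with an adjusted p 10 were called negative and 3 positive, against 10.8% and 14.1% of all rows with an adjusted p. Rows of 1 gene were counted separately. C3 rows 8 to 12 were called negative, while the more counted C3 rows 1 to 7 were not called. Rows 1 and 2 of APOB were both called negative. The median was -0.47 over all rows of the list, and the summed level 65627 against 89476 normalized reads on the positive and negative side. Endothelial and stellate markers had 3 negative and 0 positive calls in 9 rows (16.4 against 50.7 normalized reads). Muscle markers had 3 negative and 2 positive calls in 20 rows, on 58 positive-side and 78 negative-side reads (52.8 against 87.8 normalized reads). No lean is read from so few muscle calls. Of the 58 member rows 46 lay above the median hepatocyte marker row. The median of all mackerel rows, 0.04, lay above it too. The share of all rows above it was not computed, so the count of 46 has no background. The fibrinogen chain FGB, a hepatocyte product, stood at 9010 and 16847 normalized reads on the positive and negative side in mackerel and at 7730 and 2210 in sardine. Its partner chains FGA and FGG were not called in mackerel. HNF4A was called positive there, at 68.3 and 30.4 normalized reads.

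Every member row for tyrosine and phenylalanine breakdown was called positive in sardine, against 30.5% of all rows with an adjusted p. These 8 rows of 6 genes, among them the cofactor enzymes PCBD1 and QDPR, had a median log2 fold change of 3.13. Their summed level was 504 against 50.5 normalized reads. Tyrosine aminotransferase TAT, which takes the first step and responds to glucocorticoids in mammals, had 2 negative-side reads and stood at 41.9 against 1.77 normalized reads, a ratio of 23.7 (6.55 to 195). Its log2 fold change in the authors' deposited table was 4.50 ± 0.80 (SE; adjusted p 1.07e-06). HPD, the dioxygenase of the second step, had 29 negative-side reads in row 1 and stood at 313 against 25.7 normalized reads, a ratio of 12.2 (8.5 to 18.2). The authors' deposited table gave it 3.63 ± 0.60 (adjusted p 8.56e-08). Row 2 of HPD had 12, 17, 20, 3 and 3 reads in the 5 positive-side libraries and 4 on the negative side. After scaling every library of that row was above the negative side, the fourth and the fifth only slightly (3.91 and 4.26 against 3.54 normalized reads).

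The later enzymes and the cofactor enzymes of the pathway followed in sardine. Homogentisate dioxygenase HGD had 17 negative-side reads and stood at 98.7 against 15.1 normalized reads, and the authors' deposited table gave 2.69 ± 0.63 (adjusted p 0.000345). FAH, which splits fumarylacetoacetate at the end of the chain, had 3, 20, 7, 4 and 2 reads in the positive-side libraries and 1 on the negative side, a ratio of 8.38, or 5.53 without the second library. PCBD1, which recycles the tetrahydrobiopterin cofactor of phenylalanine hydroxylase, had 33, 24, 16, 9 and 2 reads against 2. In both genes each of the 5 libraries lay above the negative side, but that side held only 1 and 2 reads, which very few reads exceed. QDPR, the reductase of the same cofactor, had 16, 20, 21, 1 and 1 reads against 2 in row 1, so that 3 libraries were far above the negative side and 2 slightly below it (1.3 and 1.42 against 1.77 normalized reads). In row 2 of QDPR, at 0 on the negative side, the libraries held 4, 4, 3, 1 and 0 reads.

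In mackerel the same pathway was called in part. The first 2 enzymes were called positive, and the other 5 rows were not called. TAT had 62 positive-side and 15 negative-side reads, a ratio of levels of 3.34 (1.88 to 6.33), with 1.59 ± 0.23 (adjusted p 2.25e-10) in the authors' deposited table. HPD had 243 against 102 reads, a ratio of 1.93 (1.52 to 2.45), with 0.90 ± 0.24 (adjusted p 0.00224) in the authors' deposited table. HGD, the next enzyme, had 33 against 28 reads and a ratio of 0.953 (0.559 to 1.64), an interval that spans 1. The 5 rows not called lay between -0.26 and 0.48 on the log2 scale in the authors' deposited table. Those of FAH, PCBD1 and QDPR had 50 reads or fewer each, and the ratio intervals of all 5 overlapped that of HPD.

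Tryptophan breakdown could be compared only in part, since different enzymes were covered in each species. In sardine tryptophan dioxygenase TDO2, which opens the ring and is largely a liver enzyme, had 12, 62, 27, 1 and 8 reads in the positive-side libraries of row 1 and 0 on the negative side, which puts the positive side at least 8.42-fold higher. The second and the third library held most of these reads, and the fourth held 1. Without the second library the bound was 5.4. Row 2 of TDO2 had 2 negative-side reads and stood at 20.3 against 1.77 normalized reads, with 3.49 ± 0.73 (adjusted p 4.34e-05) in the authors' deposited table. The formamidase AFMID had 1, 2, 6, 1 and 1 reads against 0, too few for a bound, and a log2 fold change of 5.62 ± 2.02 (adjusted p 0.0196) in the authors' deposited table. The monooxygenase KMO was the sardine tryptophan row that was not called, at 23 against 10.6 normalized reads from 12 negative-side reads (1.11 ± 0.59, adjusted p 0.0877, authors' deposited table).

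In mackerel the downstream kynurenine enzymes were called. HAAO, the dioxygenase that leads towards NAD, had 90 reads against 38, a ratio of 1.92 (1.3 to 2.88), and kynureninase KYNU had 14 against 5, a ratio of 2.26 (0.771 to 8.03) whose interval spans 1. The authors' deposited table gave 0.89 ± 0.23 (adjusted p 0.00137) for HAAO and 0.86 ± 0.28 (adjusted p 0.0119) for KYNU. AFMID, with 10 against 6 reads, was not called.

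**Figure D2:**
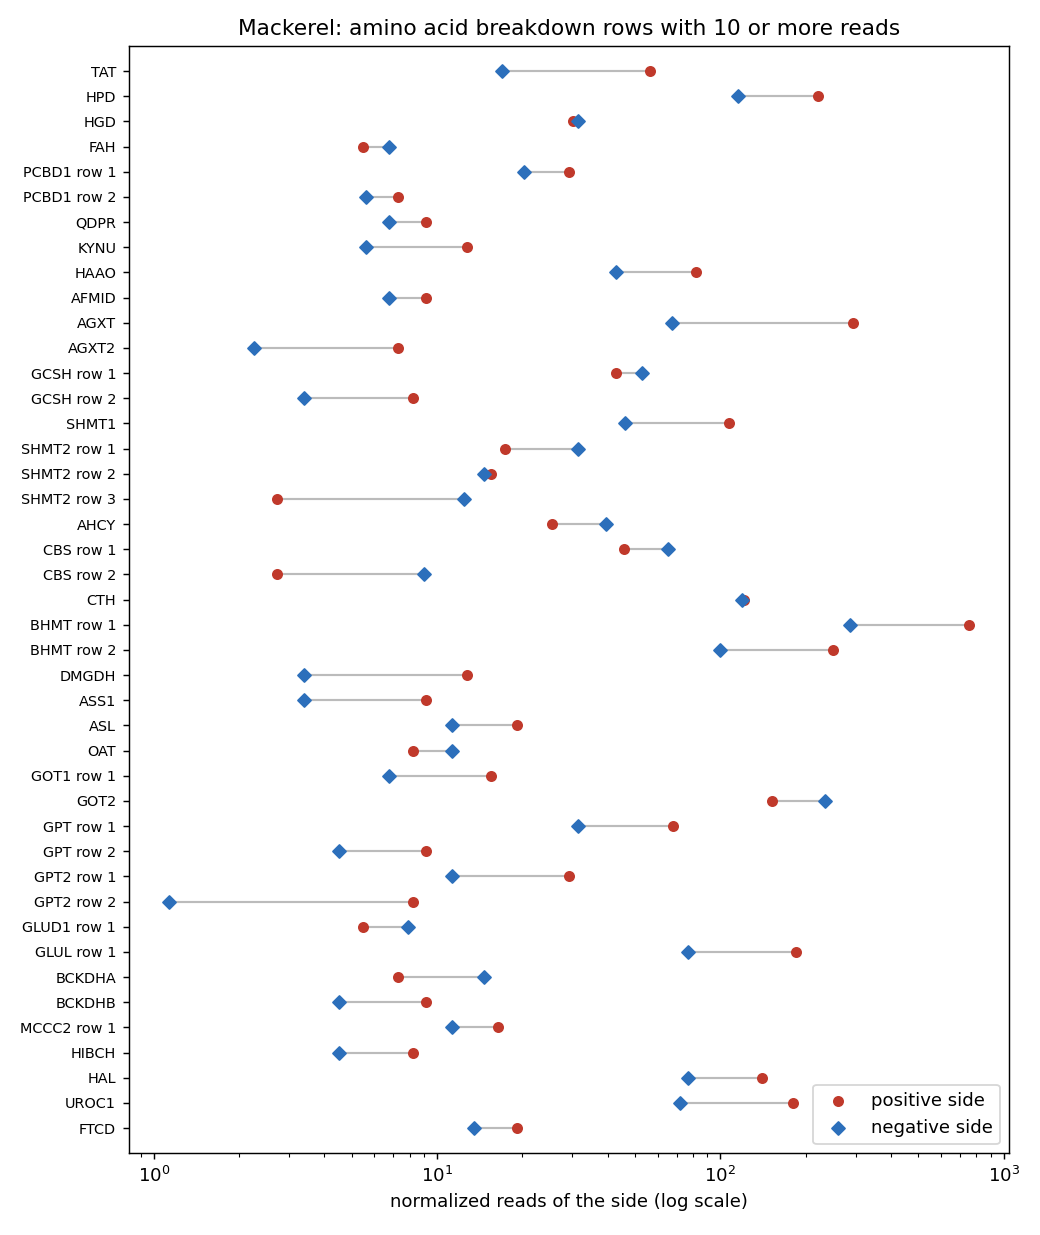
Normalized reads per side (x axis, log scale) for the 43 mackerel member rows with 10 or more reads (y axis), with a circle for the positive and a diamond for the negative side; each point is 1 number with no replicate. The widest well-counted gap is that of AGXT, at 294 against 67.6 normalized reads, and GOT2 lies the other way, at 152 against 234.

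Glycine, serine and glyoxylate enzymes were positive throughout in sardine, with a median of 2.61. All 7 rows were called, against 30.5% of all rows with an adjusted p called positive. AGXT, the aminotransferase that turns glyoxylate into glycine, had 10 negative-side reads in row 1 and stood at 55.3 against 8.85 normalized reads, a ratio of 6.25 (3.4 to 13). Its log2 fold change in the authors' deposited table was 2.63 ± 0.62 (adjusted p 0.000303). Row 2 of AGXT had 1 negative-side read and a ratio of 24.5 (4.4 to 968), with 4.55 ± 0.81 (adjusted p 8.53e-07) in the authors' deposited table. The glycine decarboxylase GLDC, core of the glycine cleavage system, had 10, 39, 18, 6 and 5 reads in the positive-side libraries and 4 on the negative side, so that each library was above the negative side (7.1 to 34.2 against 3.54 normalized reads). Its lipoyl carrier GCSH had 7, 8, 5, 4 and 2 reads against 1, with libraries at 2.84 to 7.01 against 0.885 normalized reads. With 1 read on the negative side, very few reads put a library above it. AGXT2, a second glyoxylate aminotransferase, had 8, 11, 9, 6 and 1 reads against 3, with the fifth library below the negative side (1.42 against 2.66 normalized reads).

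The serine hydroxymethyltransferases interconvert serine and glycine, SHMT1 in the cytosol and SHMT2 in mitochondria. In sardine SHMT1 had 12, 47, 14, 8 and 1 reads against 5, with the fifth library again below the negative side (1.42 against 4.43 normalized reads) and 1.87 ± 0.67 (adjusted p 0.0191) in the authors' deposited table. Its ratio of 3.66 became 2.25 without the second library. SHMT2 had 1, 9, 3, 2 and 1 reads against 0, at least 1.25-fold higher on that side, and without the second library no bound remained. The pair went apart in mackerel. SHMT1 had 118 reads against 41, a ratio of 2.33 (1.62 to 3.41), with 1.15 ± 0.23 (adjusted p 2.03e-05) in the authors' deposited table. SHMT2 row 1 had 19 against 28 reads, a ratio of 0.549 (0.29 to 1.02), with -0.78 ± 0.20 (adjusted p 0.00142) in the authors' deposited table. Row 3 of SHMT2 had 3 against 11 reads and was also called negative, while row 2, at 17 against 13, was not called. The exact test called SHMT1 (exact adjusted p 7.37e-05) and neither negative SHMT2 row (0.581 and 0.239).

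AGXT had the largest positive log2 fold change of the mackerel members in the authors' deposited table. It had 323 reads against 60, a ratio of 4.35 (3.3 to 5.84), with 2.02 ± 0.24 (adjusted p 3.86e-14) in the authors' deposited table. AGXT2 was called positive on 8 reads against 2, a ratio of 3.24 (0.646 to 31.3) that spans 1. The cleavage system was not called in mackerel: GLDC had 1 read against 3, AMT 3 against 2, and GCSH 47 against 47 in row 1 and 9 against 3 in row 2.

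Methionine and one-carbon metabolism was called on both sides in mackerel. Of 8 rows with an adjusted p 3 were positive and 3 negative, against 14.1% and 10.8% of all such rows. BHMT, which remakes methionine from homocysteine with betaine as the methyl source, had 827 reads against 255 in row 1 and 275 against 89 in row 2. Both rows moved alike, with ratios of 2.62 (2.28 to 3.03) and 2.5 (1.96 to 3.21). The authors' deposited table gave 1.33 ± 0.25 (adjusted p 3.16e-06) and 1.26 ± 0.24 (adjusted p 6.54e-06). DMGDH, which demethylates the dimethylglycine that BHMT releases, was called positive on 14 reads against 3 (ratio 3.77, 1.05 to 20.5). SARDH, the sarcosine dehydrogenase of the next step, was called negative on 2 reads against 5 (ratio 0.324, 0.0308 to 1.98).

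Homocysteine release and transsulfuration, by which homocysteine becomes cysteine, gave 0 positive and 2 negative calls in 4 mackerel rows. Of all mackerel rows with an adjusted p 14.1% were called positive and 10.8% negative. These 4 rows are part of the methionine and one-carbon rows counted above. AHCY, which releases homocysteine from S-adenosylhomocysteine, had 28 reads against 35, a ratio of 0.647 (0.379 to 1.09), and was called negative, with a log2 fold change of -0.58 ± 0.21 (adjusted p 0.0313) in the authors' deposited table. Cystathionine synthase CBS had 50 against 58 reads in row 1, which was not called, and 3 against 8 in row 2, which was called negative (-1.18 ± 0.32, adjusted p 0.00253, authors' deposited table). CTH, which splits cystathionine into cysteine, had 133 against 106 reads and a ratio of 1.01 (0.78 to 1.32). At that depth the interval leaves room for a difference of at most 1.32-fold in counting terms. The exact test called neither AHCY nor CBS.

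In sardine only 3 rows covered this pathway. BHMT had 19 negative-side reads and stood at 135 against 16.8 normalized reads, a ratio of 8.02 (5.14 to 13.3), with 3.04 ± 0.79 (adjusted p 0.00113) in the authors' deposited table. SARDH had 1, 6, 0, 0 and 2 reads in the positive-side libraries against 0 and was called in the authors' deposited table (adjusted p 0.0456), with too few reads for a bound. CTH had 0, 6, 3, 1 and 2 reads against 1 and was not called.

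Urea cycle genes were thinly counted in both species. All 3 sardine rows carried predicted records, of which 82.8% over all sardine rows were at 0 on the negative side. In sardine arginase ARG1, which releases urea from arginine, had 2, 14, 9, 24 and 0 reads against 0, a level at least 4.28-fold higher on that side. The fourth library was the highest, and without it the bound was 2.41; the fifth was at 0. The ornithine aminotransferase OAT had 4, 8, 4, 2 and 2 reads against 0, at least 1.57-fold higher, with all 5 libraries between 2.61 and 7.01 normalized reads. The authors' deposited table gave ARG1 7.53 ± 2.04 (adjusted p 0.00197) and OAT 6.34 ± 1.94 (adjusted p 0.00657), folds that depend on how a row with an empty side is fitted. Argininosuccinate synthase ASS1, with 5 positive-side reads in all, was not called.

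In mackerel the members of the cycle went in both directions. ASS1 had 10 reads against 3 and ASL, which splits argininosuccinate, 21 against 10, and both were called positive (0.91 ± 0.31 and 0.64 ± 0.23, adjusted p 0.0208 and 0.0256, authors' deposited table). Both intervals of the read ratio spanned 1. The mitochondrial arginase ARG2 had 0 reads against 7, a ratio of 0 with an interval up to 0.561. The floor of 3 counts gave at least 2.88-fold lower on the side without reads, a bound that takes the 7 reads as exact. ARG2 was called negative in the authors' deposited table (adjusted p 6.38e-06), with an adjusted p of 0.0796 in the exact test. ARG1 was called negative in the authors' deposited table on 0 reads against 3 (adjusted p 0.0125), a count at the floor, for which no fold is given. The cycle's entry enzyme CPS1 had 1 read in all and no adjusted p, and OAT, at 9 against 10 reads, was not called. The 6 rows together held 40 reads against 34.

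Among the transaminases and glutamate enzymes 7 of 10 sardine rows and 5 of 11 mackerel rows were called positive and 0 negative. Of all rows with an adjusted p 30.5% in sardine and 14.1% in mackerel were called positive, and 16.1% and 10.8% negative. Of the 10 sardine rows 6 had 0 negative-side reads. GPT and GPT2, the cytosolic and mitochondrial alanine aminotransferases, gave 3 called rows in mackerel. GPT row 1 had 75 reads against 28, a ratio of 2.17 (1.39 to 3.47), and 1.05 ± 0.23 (adjusted p 7.24e-05) in the authors' deposited table. GPT2 had 32 against 10 reads in row 1 and 9 against 1 in row 2, with 1.19 ± 0.22 and 1.42 ± 0.36 (adjusted p 2.49e-06 and 0.00112) in the authors' deposited table. Sardine GPT2 was called positive in rows 1 and 2 of 3, each at 0 on the negative side, with 3, 5, 1, 3 and 1 reads in row 1 (at least 1.01-fold higher) and 4, 7, 1, 0 and 0 in row 2. Without the second or the fourth library no bound remained for row 1.

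Glutamine synthetase GLUL, which fixes ammonia into glutamine, was called positive in both species. In mackerel row 1 had 203 reads against 68, a ratio of 2.41 (1.83 to 3.23), with 1.21 ± 0.24 (adjusted p 1.28e-05) in the authors' deposited table. In sardine GLUL had 2, 47, 6, 3 and 2 reads against 0, a level at least 4.32-fold higher on that side. A single library, the second, held 47 of its 60 reads, and without it the bound was 1.52. Glutamate dehydrogenase GLUD1, which frees ammonia from glutamate, differed in coverage: in sardine row 1 had 24, 34, 28, 6 and 2 reads against 0 (at least 7.26-fold higher) and row 2 had 6, 20, 12, 2 and 0 against 1, both called, while in mackerel 6 against 7 reads in row 1 and 4 against 1 in row 2 were not called.

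The aspartate aminotransferases GOT1 (cytosolic) and GOT2 (mitochondrial) gave mixed values among their rows. In mackerel GOT2 had 167 reads against 208, a ratio of 0.649 (0.527 to 0.8), the single row of at least 100 reads whose interval lay below 1. It missed the threshold in the authors' deposited table (-0.59 ± 0.24, adjusted p 0.0607) and passed it in the exact test (exact adjusted p 0.00139). GOT1 row 1 was called positive in the authors' deposited table on 17 reads against 6 (0.92 ± 0.26, adjusted p 0.0035). Its ratio of 2.29 (0.862 to 7.1) spans 1, and the exact test did not call it (exact adjusted p 0.723). In sardine row 1 of GOT1 had 10, 25, 8, 6 and 1 reads against 15, and row 1 of GOT2 had 8, 9, 21, 3 and 3 against 15. In each of these rows 1 library lay above the negative side of 13.3 normalized reads, the second for GOT1 and the third for GOT2, and neither row was called. Their second rows were called positive, GOT1 with 1, 4, 2, 1 and 3 reads against 0 and GOT2 with 0, 17, 21, 5 and 2 against 2. Without the third library the ratio of GOT2 fell from 0.75 to 0.426 in row 1 and from 5.81 to 3.43 in row 2.

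**Figure D3:**
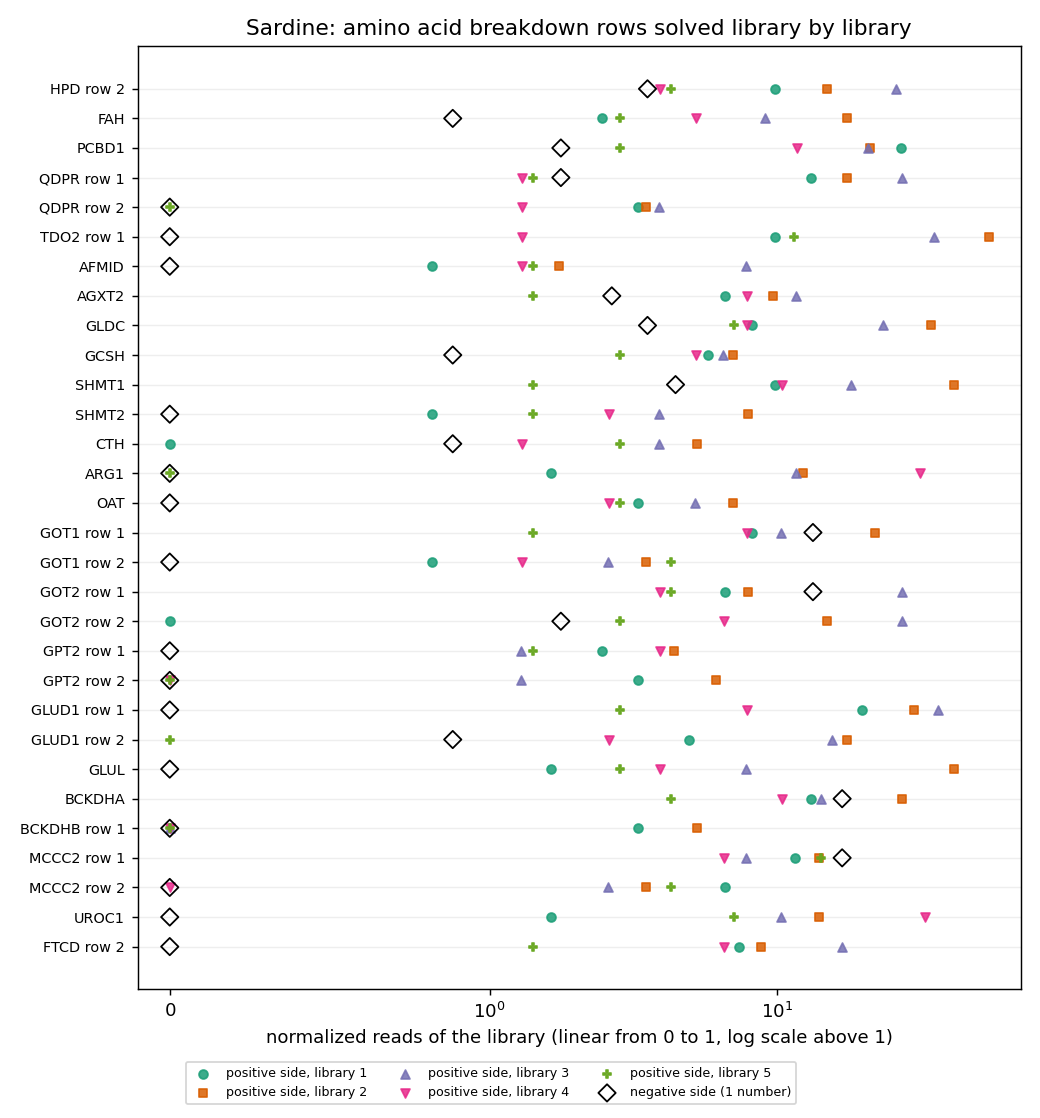
Normalized reads (x axis, linear up to 1 and log above) of the 5 positive-side sardine libraries, as coloured symbols, and of the negative side, as an open diamond, for the 30 member rows (y axis) solved library by library with at least 10 positive-side reads. The negative side is at 0 in 15 of the 30 rows, and in 1 row, MCCC2 row 1, all 5 libraries lie below it.

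Branched-chain breakdown had 1 positive call in 5 sardine rows and 1 negative call in 7 mackerel rows, against 30.5% and 10.8% of all rows. The E1 subunits BCKDHA and BCKDHB of the complex that commits branched-chain keto acids to oxidation were not called in sardine, where BCKDHA had 16, 31, 11, 8 and 3 reads against 19 and stood at 13.8 against 16.8 normalized reads (ratio 0.823, 0.527 to 1.37). BCKDHB row 1 had 10 positive-side reads in all and row 2 had 6, each against 0. MCCC2, a subunit of the leucine carboxylase, had 14, 16, 6, 5 and 10 reads against 19 in row 1, where every library was below the negative side (6.52 to 14.2 against 16.8 normalized reads), with -0.62 ± 0.35 (adjusted p 0.114) in the authors' deposited table. Row 2 of MCCC2, with 8, 4, 2, 0 and 3 reads against 0, was called positive and was at least 1.27-fold higher, with no bound left without the first library. In mackerel BCKDHA was called negative on 8 reads against 13 (-0.83 ± 0.25, adjusted p 0.00799, authors' deposited table; ratio 0.498, 0.179 to 1.3). The 6 other rows with an adjusted p, of BCKDHB, IVD, MCCC1, MCCC2 and HIBCH, had 28 reads or fewer each and were not called, between -0.25 and 0.67 on the log2 scale. The 2 HIBADH rows had 2 reads each.

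Histidine breakdown was called positive in 3 of 3 rows in sardine and 2 of 3 in mackerel, against 30.5% and 14.1% of all rows. In mackerel histidine ammonia-lyase HAL, the first enzyme, had 154 reads against 68, a ratio of 1.83 (1.37 to 2.47), with 0.83 ± 0.24 (adjusted p 0.00406) in the authors' deposited table. Urocanate hydratase UROC1, the second, had 198 against 64, a ratio of 2.5 (1.88 to 3.37), with 1.26 ± 0.24 (adjusted p 4.63e-06) in the authors' deposited table. FTCD, which hands the formimino group of histidine to folate at the end of the pathway, had 21 against 12 reads and was not called. In sardine UROC1 had 2, 16, 8, 25 and 5 reads against 0, at least 4.95-fold higher on that side, with every library above 0. Without the fourth library the bound was 3.12. UROC1 carried a predicted record, a type mostly at 0 on the negative side. FTCD row 1 had 7 negative-side reads and stood at 47.4 against 6.2 normalized reads, a ratio of 7.65 (3.71 to 19), with 2.90 ± 0.70 (adjusted p 0.000487) in the authors' deposited table. FTCD row 2 had 9, 10, 13, 5 and 1 reads against 0, at least 3.08-fold higher. Of the proline genes 1 row was counted, sardine PRODH, with 3 reads and no call.

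The positive-side sardine libraries differed in how much of these transcripts they held. Over the 35 member rows solved library by library the summed level was 196, 488, 398, 197 and 98 normalized reads, against 83.2 on the negative side. Over the same libraries, in their own solved rows, some other lists varied with them and others did not. Hepatocyte markers, with 6 of 24 rows solved, held 23.8, 35.1, 49.2, 13 and 14.2 normalized reads. Their most counted rows, FGG and FGB among them, were not solved, and the whole list stood at 47301 normalized reads on the positive side. These sums are therefore a small part of the hepatocyte signal. Kidney tubule markers (6 of 6 rows solved) held 12.3, 28.1, 28.5, 10.4 and 9.94. Striated muscle markers (19 of 48) held 18, 13.2, 27.2, 26.1 and 31.2, and pancreas markers (4 of 5) 27.9, 11.4, 2.59, 6.52 and 1.42. Erythrocyte markers (6 of 11) held 8.2, 7.01, 5.17, 19.6 and 5.68, and bile duct markers (5 of 7) 9.01, 21.9, 24.6, 26.1 and 5.68. Leukocyte markers (7 of 8) held 6.56, 7.89, 12.9, 7.82 and 2.84, and endothelial and stellate markers (9 of 11) 4.92, 12.3, 20.7, 13 and 9.94. Without 1 library at a time the ratio of the summed member level to the negative side, 3.31 with all 5, ran from 2.67 to 3.84. The second library was the highest in 15 of the 30 rows plotted and the third in 9, while the fifth was the lowest in 12. The rows plotted were kept for their positive-side reads and 15 of them had 0 negative-side reads, so no count of libraries above the negative side is given. The plot of sardine libraries shows this as orange squares and purple triangles towards the right and green crosses towards the left. Pathways differed in their highest library. The third was the highest in the tyrosine rows (86.7 normalized reads, against 74.5 in the second). The fourth was the highest in the urea cycle and histidine rows (36.5 and 39.1 normalized reads), where ARG1 and UROC1 held most of its reads. Rows of higher mean were mostly not solved, so HPD row 1, HGD, BHMT, TAT and AGXT have no value per library here.

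**Figure D4:**
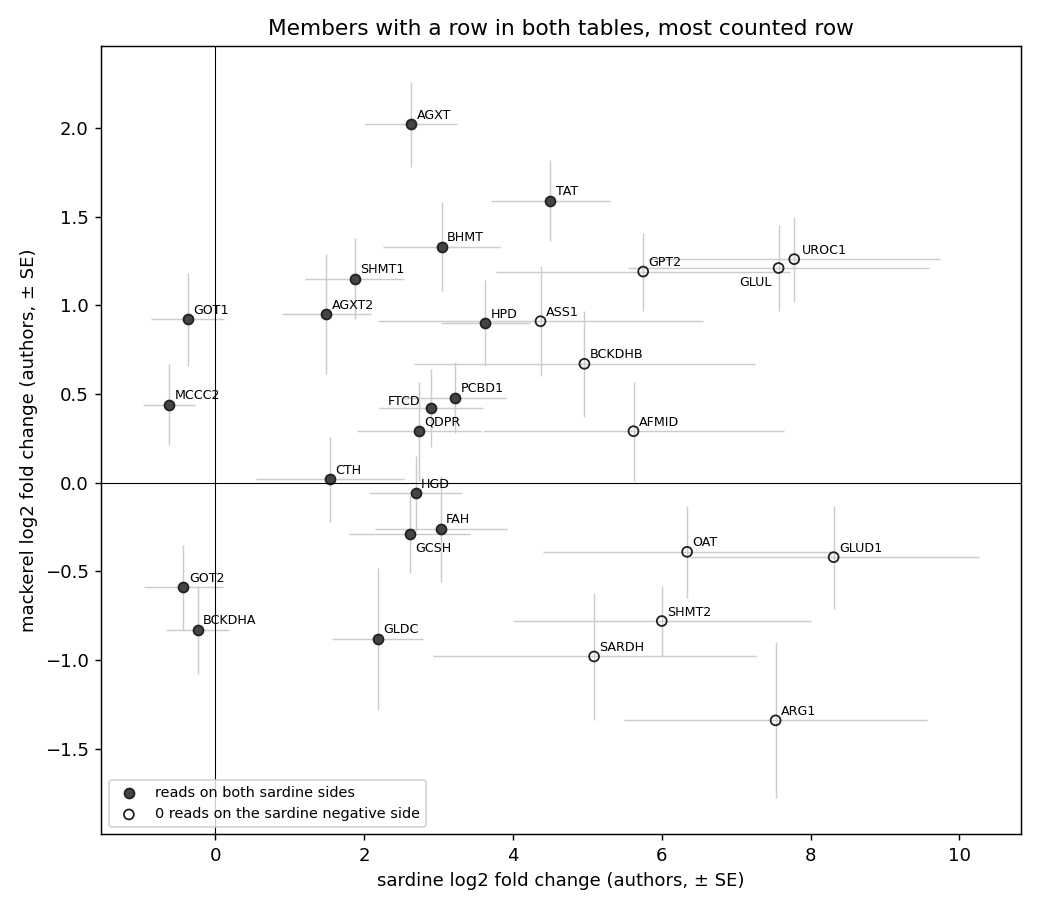
Log2 fold change with its SE in sardine (x axis) and mackerel (y axis), from the authors' deposited tables, for the 29 members with a row in both, using the row of highest mean of each symbol; open circles had 0 reads on the sardine negative side. AGXT, TAT and BHMT lie highest among the filled circles of the upper right, and ARG1, SARDH and SHMT2 are open circles of the lower right.

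Taking the row of highest mean for each of the 29 members in both tables, 9 were called positive in both: TAT, HPD, AGXT, AGXT2, SHMT1, BHMT, GPT2, GLUL and UROC1. Over all 3449 symbols with a row in both, 5.45% were called positive in both. With that choice of row, all symbols gave 28.7% positive and 17% negative calls in sardine and 14.7% and 10.7% in mackerel. The 9 genes include the first steps of tyrosine breakdown, the glyoxylate aminotransferases and the ammonia-fixing GLUL. Among these 9, GPT2, GLUL and UROC1 had 0 reads on the sardine negative side, and GPT2 and UROC1 carried predicted records there. The ratio interval of AGXT2 spanned 1 in sardine (0.955 to 13.5) and in mackerel (0.646 to 31.3). The mackerel exact test called neither AGXT2 nor row 1 of GPT2 (exact adjusted p 0.947 and 0.147). Another 3, SHMT2, SARDH and ARG1, were called positive in sardine and negative in mackerel, a combination seen in 4.23% of the shared symbols. Each of these also had 0 reads on the sardine negative side, and SHMT2 and ARG1 carried predicted records there. Calls in sardine alone, all positive, were 10 (22.4% of the shared symbols), calls in mackerel alone were 2 positive (ASS1 and GOT1) and 1 negative (BCKDHA), and 4 members were called in neither. No test compared the species' fold changes. The numerator may differ between the tables, so the same side need not mean the same group of fish.

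Other genes of amino acid metabolism gave a background for the members. In sardine 35 of 67 rows were called positive and 8 negative, against 30.5% and 16.1% of all rows with an adjusted p. Of all 68 sardine rows of these genes 37 had 0 negative-side reads. Their median log2 fold change was 4.42, above the 3.58 of the members. Summed, they held 598 normalized reads (positive side) against 204 (negative side), where the members held 1030 against 171. In mackerel 14 of 76 rows were called positive and 12 negative, against 14.1% and 10.8% of all rows. Summed mackerel levels were 1.11 times higher on the positive side. The mackerel genes called positive with the smallest adjusted p were AGMAT, which splits agmatine (24 reads against 1, 2.58 ± 0.34 in the authors' deposited table), the sulfite oxidase SUOX (44 against 12, 1.40 ± 0.22), the lysine pathway dehydrogenase ALDH7A1 (145 against 50, 1.17 ± 0.24) and ALDH9A1 (28 against 10, 1.01 ± 0.22). Those on the negative side were the asparaginase ASPG (9 against 22, -1.36 ± 0.23 in the authors' deposited table), the mitochondrial folate enzyme ALDH1L2 in 2 rows (50 against 103 and 8 against 17, -1.27 ± 0.24 and -1.16 ± 0.24) and PPM1K, the phosphatase that activates branched-chain keto acid oxidation (9 against 19, -1.17 ± 0.23).

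In sardine ALDH1L2 lay on the other side. Its row 1 had 0 negative-side reads and stood at least 17.9-fold higher on the other side, and row 2 stood at 4.24 ± 0.90 in the authors' deposited table. The glycerate kinase GLYCTK (2.92 ± 0.42) and the polyamine enzyme ODC1 (2.36 ± 0.51) were also called positive in that table. The negative calls with the smallest adjusted p were DLD, a subunit shared by the glycine cleavage and keto acid complexes (-0.93 ± 0.29), the thiolase ACAT1 (-6.12 ± 1.92), the aspartate-glutamate carrier SLC25A12 (-1.77 ± 0.56) and the decarboxylase DDC (-2.62 ± 0.88), all from the authors' deposited table. ACAT1 rested on 5 negative-side reads and DDC on 6.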

How the data were processed

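Liver RNA sequencing of 20 fish was available as 1 result table per species from a DESeq2 comparison by the authors. Per the file headers the authors' columns are a mean normalized count, which is a signal averaged over the libraries, a fold change with its standard error on the log2 scale, a Wald score, and a p-value before and after adjustment. Per the submitters' processing notes the tools of the authors were DESeq2 and CASAVA 1.8, with the zebrafish assembly GRCz10. Aligner, counter and filters were not given in the sources used here. Sardine rows were matched to members by their human ortholog symbol and mackerel rows by their gene symbol. Mackerel rows carried fugu gene identifiers, unlike the zebrafish records of the sardine rows. A symbol shared by both species therefore joins rows of unlike annotations. Values per fish and library totals were not at hand, so no test between fish was computed.

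Reads were recovered from the deposited means. All 9191 mackerel means were met by 0.455 per positive-side read plus 0.563 per negative-side read plus a constant of 1.66 whose origin is not known and which was left out of levels (largest residual 3.32e-06). The mackerel reads summed to 376343 for the positive and 332486 for the negative side. In sardine each of the 5123 rows whose mean was 5 or less had 1 solution in 5 positive-side libraries and 1 negative-side number; listed rows with a mean up to 20 were tried, and 35 of 44 member rows were solved. Elsewhere the negative-side number was estimated from mean and fold change. The estimate met the solved number in 100% of 1206 rows checked, all with a mean of 5 or less. At higher means the estimated negative-side number was not checked. The authors' sardine fold changes were close to the ratio in which that number stands for all 5 libraries of its side (median difference 0.02 log2 over 1982 rows). The steps were tested on simulated data.

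For the mackerel reads an exact two-sided binomial test was run against an expected positive share of 55.3%, with Benjamini-Hochberg adjustment over 9191 rows. Sardine intervals are exact Poisson intervals of the negative-side number. A side at 0 was given a floor of 3 counts over that side, and no fold where the other side did not exceed it. Such bounds leave out the counting error of the other side.

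Named with values were members called in both species, the 15 called rows per side and species with the smallest adjusted p, the 8 rows of highest mean per species, rows called at 0 reads on 1 side, and of the other pathway genes the 4 called rows with the smallest adjusted p per side and species. Some further members were named to complete a pathway, after their values were seen. Members and lists were chosen with earlier results of these data known. The closing section gives the alternatives. Python 3.11.15, numpy 2.4.6, pandas 2.3.3, scipy 1.17.1 and matplotlib 3.10.9 were used.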

Additional observations from a re-analysis of the deposited data

Results flagged for a closer look

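Among 30 sardine member rows with values for 5 positive-side libraries, 3 had 1 library far from the other 4. For 5 values of 1 normal distribution chance gives about 1 in 20. That rate need not hold for small counts in libraries that differ in level. The gap to the nearest library, as a share of the range, was 0.865 for the formamidase AFMID in the third library (7.76 normalized reads, against 0.82 to 1.75 in the others). It was 0.829 for GOT2 row 1, also in the third library (27.2, against 3.91 to 7.89). It was 0.845 for GLUL in the second library (41.2, against 1.64 to 7.76). AFMID and GLUL were called positive and GOT2 row 1 was not. AFMID rested on 11 reads.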

How the results depend on the processing

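The sardine count of 33 positive calls became 21 at an adjusted p under 0.01, 10 of 15 rows with a mean of at least 10 (66.7%, against 49.5% of all such rows) and 18 of 24 rows with reads on both sides; a stricter threshold or fewer rows must lower such a count. The sardine median of 3.58 became 1.67 with rows at 0 at their bound, and 2.62 where both sides held reads. Relative to hepatocyte markers limited the same way (median 1.92), that 2.62 became 0.70, an alternative chosen after seeing the data. Without that limit the marker median was 3.39, beside a member median of 3.58. The 27 mackerel calls became 12 in the exact test, and the cause was not tested. The 1 negative row of the exact test was GOT2, which was not among the authors' calls. The exact test called none of the 8 negative calls, with ARG2 the closest at an exact adjusted p of 0.0796. The other alternatives kept the sardine median between 2.69 and 3.13 and the mackerel median between 0.51 and 0.73, and no median turned its sign. Curated records alone gave 25 of 33 sardine rows positive, against 19.7% of all such rows. Of the 8 negative mackerel calls 5 rested on fewer than 15 reads. No paired analysis was possible because the tables hold no value per fish and the labels pair none. For the same reason no fish could be left out of the authors' calls. Leaving out 1 positive-side library at a time, an alternative also chosen after seeing the data, moved the ratio or bound of 11 of 25 solved sardine rows by over 1.5 times or ended the bound, which 3 rows lost.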
